A study of Mus musculus with 80 samples.

Results

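The genes for 3 eosinophil granule proteins, Epx, Prg2 and Prg3, were followed through RNA sequencing libraries made from hematopoietic stem cells (HSC) and from progenitors (hematopoietic progenitor cells, HPC) of the mouse. They are the rows Epx (ENSMUSG00000052234), Prg2 (ENSMUSG00000027073) and Prg3 (ENSMUSG00000027072), 3 of 41388 genes in the table of the age series and 3 of 40481 in the table of the genotype series. All 3 were found in both tables. They were selected on their transient rise in HPC at postnatal day 14 (P14) in the age series, so their levels over HPC ages are described here without a test.

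Eosinophils are granulocytes of blood and tissue that develop in the bone marrow under interleukin 5. Their granules hold a few very abundant basic proteins, and the genes for these are transcribed early, at the promyelocyte stage, when GATA and C/EBP transcription factors act together. Epx encodes eosinophil peroxidase, a haem enzyme that makes hypohalous acids. Prg2 encodes the precursor of major basic protein, which forms the crystalline core of the granule, and Prg3 encodes a close homolog of it.

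The study held 80 libraries in 20 groups, all from mice of the B6 background. In the age series, HSC were taken before birth at embryonic day E14.5 (called E14; 3 libraries), E16.5 (E16; 4) and E18.5 (E18; 3), at postnatal days 0, 7 and 14 (P0, P7 and P14; 4 each) and at 8 weeks (Adult; 4). HPC of the age series were taken at E16 (3 libraries), P0 (4), P7 (4), P14 (5) and 8 weeks (4), and no genotype is given for these animals. In the genotype series, P0 HSC and HPC were either wild type (5 and 4 libraries) or knockouts of the type I interferon receptor, written Ifnar-/- (4 and 4). P14 HPC of that series were Ifnar+/- Flt3 +/+ (4 libraries), Ifnar+/- Flt3 ITD/+ (4), Ifnar-/- Flt3 +/+ (4) and Ifnar-/- Flt3 ITD/+ (5). ITD is the internal tandem duplication of the growth factor receptor gene Flt3, carried on 1 allele here, and every P14 group of that series lacked at least 1 Ifnar allele. The surface markers of the sort, the organ, and whether libraries came from separate animals were not given, so p-values measure only the spread between libraries.

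In the age series, HSC libraries totalled 6950206 to 24033730 reads and HPC libraries 7910900 to 25382447. They were 37039400 to 46302596 reads in P0 HSC, 11683086 to 14719608 in P0 HPC and 58400350 to 92099541 in P14 HPC of the genotype series. Levels are given as CPM, a gene's reads for every 1000000 reads of the library, and a count of 0 allows up to 3 reads, counting error only. The labelled cell types were set against markers: 7 HSC genes summed to 938 to 1920 CPM in HSC and 184 to 890 CPM in HPC, and Cd48, a surface protein of progenitors, ran from 1.41 to 55.9 CPM in HSC and from 140 to 569 CPM in HPC. Ifnar1 was counted at 42.3 to 87.9 CPM in Ifnar-/- libraries and at 16.8 to 79.3 CPM in the others of the genotype series. The deleted stretch is not given, so these counts do not check the knockout. Flt3 RNA split the P14 control group, Ifnar+/- Flt3 +/+: library 2 had 1090 CPM and the other 3 had 104 to 161 CPM. It was 609 to 1030 CPM in Ifnar-/- Flt3 +/+ HPC, 433 to 547 and 125 to 448 CPM in Ifnar+/- and Ifnar-/- Flt3 ITD/+ HPC, and 174 to 1470 CPM in P14 HPC of the age series. Library 2 thus lay near the other Flt3 +/+ genotype group, and libraries 1, 3 and 4 lay below it.

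Promoter sequences are shown because the members were high in the same libraries. RefSeq windows (GRCm38.p6) were matched for 2 of the 3 members and cover the 250 bases before the annotated start, read 5′ to 3′ on the strand of the gene. The Epx window is chr11:87875537-87875786 (minus strand) and the Prg3 window is chr2:84987965-84988214 (plus strand). Capitals mark matches to a TATA box (TATAA) or to a GATA motif (GATAA, which reads TTATC where it lies on the opposite strand).
Epx: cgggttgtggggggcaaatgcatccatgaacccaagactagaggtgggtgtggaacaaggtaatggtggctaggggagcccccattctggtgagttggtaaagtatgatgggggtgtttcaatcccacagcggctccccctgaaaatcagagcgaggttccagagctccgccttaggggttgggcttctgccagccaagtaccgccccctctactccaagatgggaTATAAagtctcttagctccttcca
Prg3: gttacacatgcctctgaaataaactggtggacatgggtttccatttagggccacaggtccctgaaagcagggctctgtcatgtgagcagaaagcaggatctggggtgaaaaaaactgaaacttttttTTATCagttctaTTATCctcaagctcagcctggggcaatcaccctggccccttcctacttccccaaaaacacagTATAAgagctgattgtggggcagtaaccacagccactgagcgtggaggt
Both windows held TATAA on the strand of the gene, 24 bases before the start in Epx and 49 bases before it in Prg3. The Prg3 window held 2 GATAA matches on the opposite strand, 123 and 111 bases before the start, and the Epx window held none. The C/EBP motif TTGCNNAA was in neither. Searched on both strands, GATAA was in 22.6%, TATAA in 22.8% and TTGCNNAA in 9.6% of 32851 such windows, so each match is common and describes letters only.

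Prg2 and Prg3 lie beside each other on chromosome 2, with the noncoding RNA gene Gm39868 between them in RefSeq, whereas Epx lies on chromosome 11 beside Mks1 and Olfr462. The longest identical stretch between the transcripts of Prg2 and Prg3 was 23 bases, and that between Epx and its relative Mpo, the myeloperoxidase gene of neutrophils, was 26 bases. No other gene of the GENCODE M21 annotation overlapped a member.

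In HPC of the age series, all 3 genes were far higher at P14 than at any other age. Their medians were lower at E16 and P0 than at P7, but E16 library 2 lay above every P7 library for each gene. Prg2 stood at 7950, 2850, 309, 1080 and 2860 CPM in P14 libraries 1 to 5. In the other 15 HPC libraries it ran from 7.2 to 213 CPM. Every P14 library was above every other HPC library of this series for Prg2, and the same held for Epx and Prg3.

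Epx stood at 1050, 351, 65.5, 346 and 319 CPM in P14 libraries 1 to 5. It was 5.15, 7.12, 4.09 and 2.93 CPM at P7, and 6.85, 32.3, 1.13 and 8.97 CPM in adults. Prg3 stood at 320, 149, 12.9, 34.5 and 78.3 CPM at P14, with 1.49 to 2.06 CPM at P7 and 0.17 to 3.47 CPM in adults. Library 3 was lowest and library 1 highest at P14 for each gene, a spread of 16.1-fold for Epx, 25.7-fold for Prg2 and 24.7-fold for Prg3 within 1 group.

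**Figure D1:**
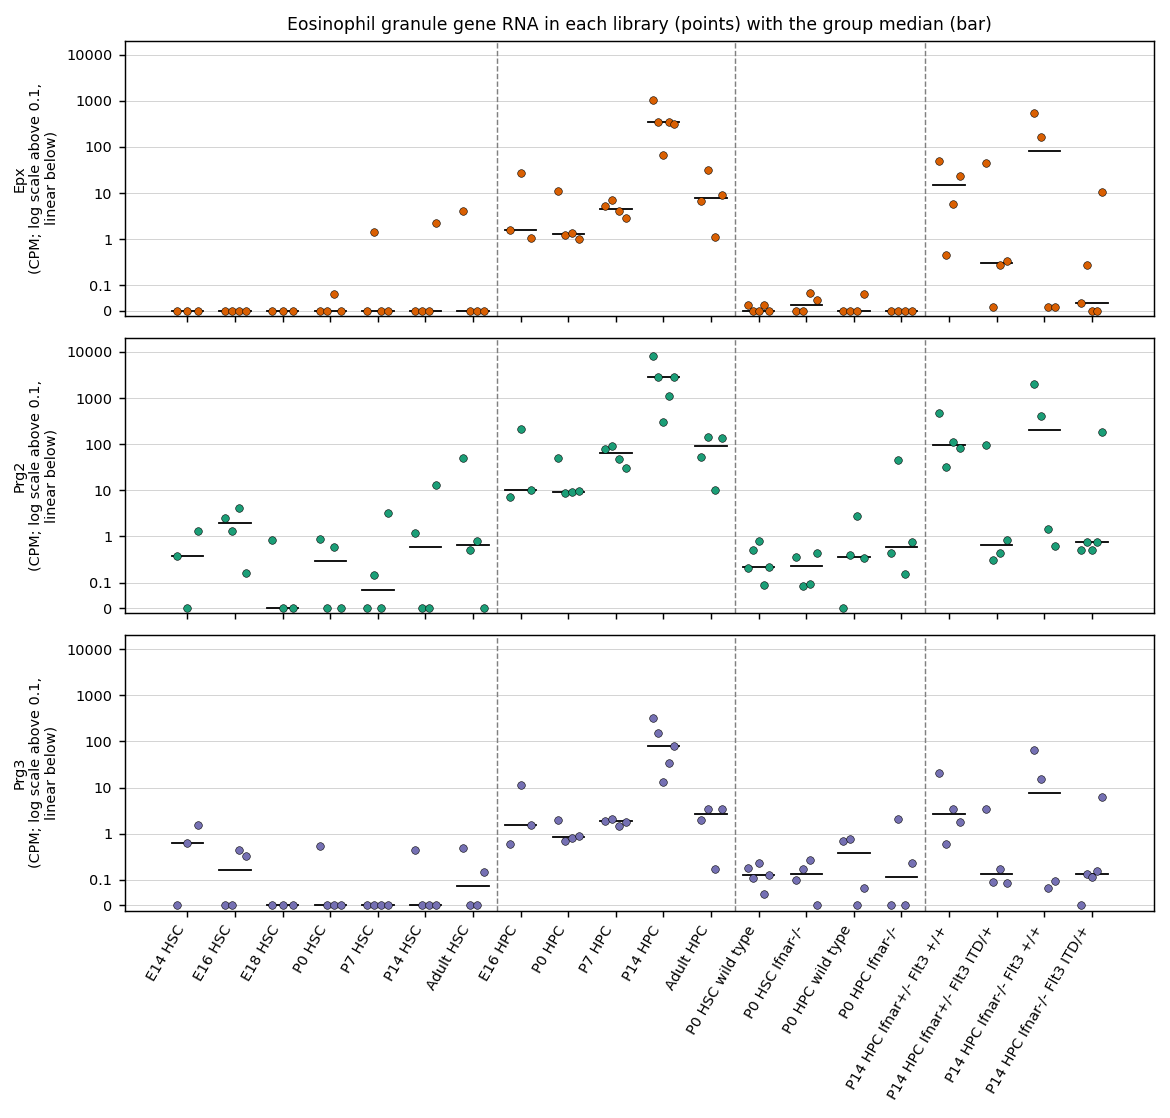
RNA of Epx, Prg2 and Prg3 in each of the 80 libraries (points, CPM, logarithmic above 0.1 and linear below), by group, with the group median as a bar; dashed lines part HSC ages, HPC ages, P0 genotypes and P14 genotypes. The 5 P14 HPC libraries of the age series lie above all other HPC of that series, and the P14 genotype groups spread over several orders of magnitude.

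As a description, the fold change from P7 to P14 on the log2 scale was 6.64 ± 1.10 (SE) for Epx, 5.79 ± 1.13 for Prg2 and 6.23 ± 0.94 for Prg3. From P14 to Adult it was -5.40 ± 1.03, -5.48 ± 1.12 and -6.03 ± 0.92. The steps from P0 to P7 were smaller, at 0.33 for Epx, 1.64 for Prg2 and 0.71 for Prg3, and without P0 library 1 the Epx value was 1.94 (range over libraries left out 0.0 to 1.94; 1.39 to 2.75 for Prg2 and 0.5 to 1.21 for Prg3). Among the 20 groups, the P14 HPC median was the highest for each gene.

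At E16 and at P0, single libraries held most of the Epx and Prg2 signal, whereas the 4 libraries at P7 spread over 2.43-fold for Epx, 3.07-fold for Prg2 and 1.38-fold for Prg3. At E16, library 2 had 213 CPM of Prg2, 27.8 of Epx and 11.1 of Prg3, where libraries 1 and 3 had 7.2 and 10.4 CPM of Prg2. At P0, library 1 had 50.2 CPM of Prg2 and the other 3 had 8.72 to 9.61 CPM. The fold change from E16 to P0 was -1.53 for Epx, -2.06 for Prg2 and -2.10 for Prg3, and it turned to 1.46, 1.20 and 0.19 without E16 library 2, so no direction between these ages can be read. In such bulk samples, fewer cells of a type and less RNA per cell cannot be told apart.

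Per transcript length, Prg2 was by far the most abundant of the 3. Median RPKM (reads per kilobase, scaled to library depth) at P14 in HPC were 3400 for Prg2, 126 for Epx and 82.5 for Prg3. In HPC of the age series, the per-length level of Prg2 was 10.2 to 50.6 times that of Epx (median 25.0; 15 libraries with at least 30 reads of each). It was 18.9 to 50.4 times that of Prg3 (median 29.3; 13 libraries). In these libraries with at least 30 reads of each gene, Prg2 thus exceeded both others by at least 10.2-fold per length. The gap was smaller in E16 library 3, which that limit left out, with 12.4 RPKM of Prg2 and 1.66 RPKM of Prg3.

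Other genes of the eosinophil lineage did not all follow the members. Of 23 such genes, 21 were tested from P7 to P14 in HPC, and 6 were called higher and 2 lower (edgeR), where 9.84% of all 14754 genes tested were called. These are the libraries on which the members were selected, so nothing is read from that count. The transcription factor Cebpe, needed for late granulocyte maturation, had a log2 fold change of 4.77 ± 0.66, and the eosinophil-associated ribonucleases Ear2, Ear6 and Ear1 had 5.83 ± 1.11, 6.20 ± 1.24 and 5.43 ± 1.21. The Ear family has copies of nearly the same sequence, so the counting may have shared reads among them and these values are uncertain.

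The 4 other calls of that step were chosen for mention after their values were seen. They were the chemokine receptor Ccr3 (2.37) and the secretory factor Xbp1 (1.02), called higher, and the receptor of interleukin 33, Il1rl1 (-2.09), and the factor Gata1 (-1.31), called lower. Surface receptors of the eosinophil lineage were low in P14 HPC: Siglecf ran from 2.0 to 5.23 CPM (3.4 to 4.86 CPM at P7) and Il5ra from 0.411 to 2.33 CPM (0.519 to 1.25 CPM at P7). Ccr3, although called higher at this step, ran from 0.529 to 4.25 CPM. The median log2 fold change of the list was 0.38, beside 0.02 for all genes.

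From P14 to Adult, 0 of the 21 were called higher and 8 lower, where 28.9% of all genes were called. They included Cebpe (-5.10 ± 0.67), the lipoxygenase Alox15 (-2.59 ± 0.45), Ear2 (-4.47 ± 0.99) and Ear6 (-5.13 ± 1.15). At the earlier steps, 2 were called higher and 0 lower from E16 to P0 (3.27% of all genes called), and 0 higher and 2 lower from P0 to P7 (1.5% called).

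Neutrophil granule genes moved in the same libraries. Of the 8 genes of the neutrophil primary granule list, 7 were called higher from P7 to P14, among them Mpo (2.76 ± 0.40), Ms4a3 (5.18 ± 0.79) and the elastase Elane (5.72 ± 1.0). Summed over the list, the neutrophil primary granule genes stood at 6500, 13000, 21200, 6760 and 3070 CPM in P14 libraries 1 to 5, and at 2010 to 2570 CPM at P7. Library 3, the lowest for each member, was the highest for this list. Of the 16 mast cell and basophil genes, 0 were called higher and 7 lower over the same step. Of all genes, 9.84% were called there, in the libraries on which the members were selected, and nothing is read from these counts. The part of these other lineages in the members' levels was not tested.

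**Figure D2:**
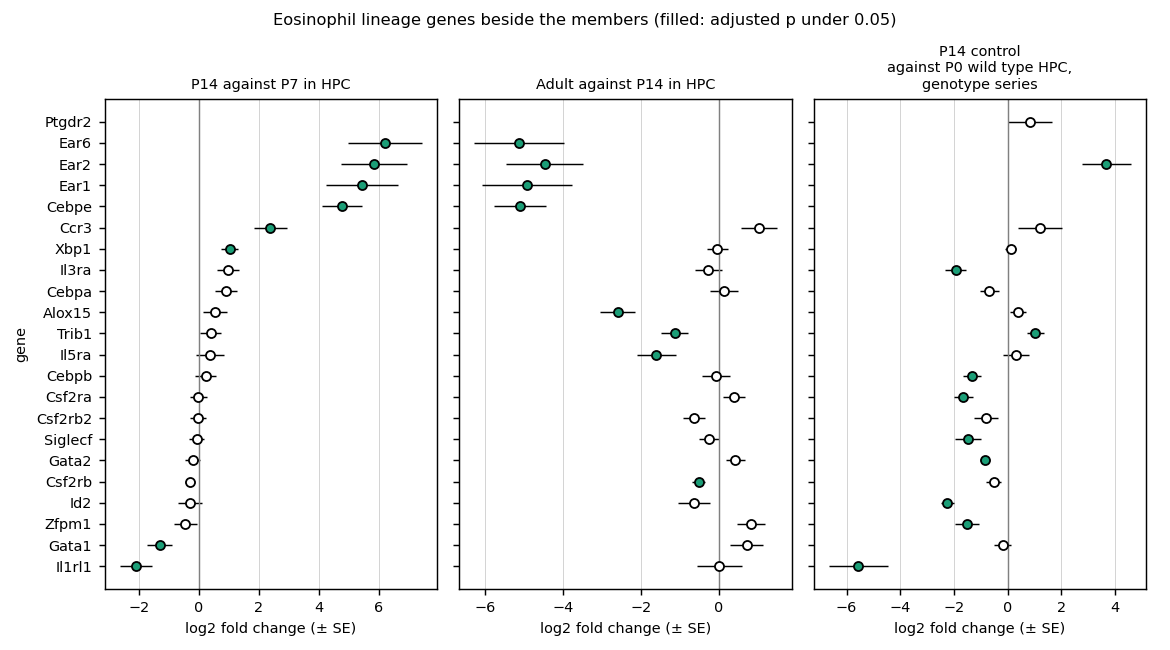
Log2 fold change (± SE) of the eosinophil lineage genes beside the members, in 3 comparisons of HPC; filled points passed an adjusted p of 0.05 (edgeR). Cebpe, Ear1, Ear2 and Ear6 lie at 4.77 to 6.20 from P7 to P14 and at -5.13 to -4.47 from P14 to Adult, while most other genes of the list lie nearer 0.

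In HSC the members were at or near 0 at every age. Epx had no read in 22 of the 26 HSC libraries of the age series. Prg2 reached 50.8 CPM in Adult library 1 and 12.9 CPM in P14 library 4, and it was at most 4.1 CPM in the other 24. Prg3 did not exceed 1.58 CPM. Both of the higher libraries were single libraries of their group: the other 3 Adult HSC libraries had 0.52, 0.815 and 0 CPM of Prg2, and the other 3 P14 libraries had 1.16, 0 and 0 CPM.

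At P14, Prg2 in HSC (0 to 12.9 CPM) and in HPC (309 to 7950 CPM) did not overlap. Prg2 was selected on its rise in these HPC libraries, and the share of all genes that part likewise was not counted. Nothing is read from this gap. Adult HSC library 1 also held 7.08 CPM of Ear1, Ear2 and Ear6 summed, where the lowest of its group held 0.458 CPM. Its neutrophil primary granule genes, at 897 CPM, lay within the 774 to 906 CPM of that group.

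Of the 3 members, only Prg2 passed the filter on low values in HSC, and it was called at none of 4 age steps. Its log2 fold change with limma (SE 1.20 each) was -1.47 from E16 to P0, 0.16 from P0 to P7, 0.85 from P7 to P14 and 0.69 from P14 to Adult, with adjusted p of 0.468, 0.962, 0.859 and 0.838. Of all genes, 14.55%, 5.9%, 1.71% and 5.3% were called at these steps. The last 2 values rested on single libraries: without P14 library 4 the step from P7 was -0.24, and without Adult library 1 the step to Adult was -0.81. For Epx and Prg3 an exact two-sided permutation test gave p = 1.0 in 7 of 8 cases and 0.7143 for Prg3 from P14 to Adult (adjusted p = 1.0 in all 8). The group sizes alone allow no p below 0.02857, and libraries without reads raise that limit. For Epx from E16 to P0, and for Prg3 from P0 to P7 and from P7 to P14, a single library held reads. There the test could give no other p. In the remaining cases so few libraries held reads that p could not fall under 0.05 either. Nothing is read from these 8 tests.

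The genotype series gave libraries that had no part in the selection. At P0, wild type HPC held almost none of the members' RNA. Epx had 1 read over the 4 libraries, Prg2 had 0, 5, 38 and 5 reads and Prg3 had 9, 10, 0 and 1. These levels were lower than in P0 HPC of the age series, where Prg2 ran from 8.72 to 50.2 CPM against 0 to 2.8 CPM here, without overlap. The age series gives no genotype for its animals and its values stand in a separate table, and this gap was not tested. The share of all genes that part these libraries likewise was not counted, so the gap is not read as particular to the members.

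At P14, the control group of that series, Ifnar+/- Flt3 +/+, held all 3. Prg2 stood at 473, 32.1, 113 and 83.2 CPM in libraries 1 to 4, Epx at 50.2, 0.45, 5.93 and 23.5 CPM, and Prg3 at 21.0, 0.585, 3.51 and 1.78 CPM. Library 1 was highest and library 2 lowest for each. For Epx and Prg2, each of the 4 lay above every P0 wild type library, and for Prg3 library 2, at 0.585 CPM, lay below 2 of the P0 libraries.

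All 3 members were called higher at P14 than at P0 in this series (edgeR), where 39.0% of all 15388 genes tested were called, so a call is common here. The log2 fold change was 8.06 ± 1.17 for Prg2 (edgeR adjusted p = 0.000295) and 4.59 ± 1.22 for Prg3 (edgeR adjusted p = 0.0119). For Epx, called at an edgeR adjusted p of 0.000936, the ratio of pooled reads was 1150, with an exact 95% interval of 206 to 45300 from 6185 reads against 1. The pooled ratio was 197 (148 to 267) for Prg2 and 17.9 (11.6 to 29.4) for Prg3, and these intervals cover counting error only. Age cannot be told apart here from Ifnar heterozygosity or from the bracketed codes in the titles, which begin differently in the P0 and the P14 libraries.

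In that comparison, 2 of 19 tested eosinophil lineage genes were called higher, Ear2 (3.67 ± 0.92) and Trib1 (1.02 ± 0.32; chosen for mention after its value was seen), and 8 were called lower. Among the lower were Id2 (-2.25 ± 0.24), an inhibitor of basic helix-loop-helix factors, Il1rl1 (-5.56 ± 1.10) and the interleukin 3 receptor Il3ra (-1.93 ± 0.39). Of the 8 neutrophil primary granule genes, 5 were called higher and 0 lower. Beside the counts of both lists, 39.0% of all 15388 genes tested were called. The list's median log2 fold change was -0.68 for the eosinophil lineage and 1.71 for the neutrophil primary granule, beside -0.06 for all genes.

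Loss of Ifnar at P0 could not be tested on the members in HPC, since none passed the filter on low counts; 10.4% of all 12988 genes tested were called there. Epx had 0 reads in all 4 Ifnar-/- HPC libraries, which allows up to 0.228 to 0.257 CPM in each. Prg2 had 5, 582, 2 and 10 reads and Prg3 had 0, 27, 0 and 3. Library 2 thus carried Prg2 at 45.5 CPM and Prg3 at 2.11 CPM with no read of Epx. In P0 HSC, only Prg2 passed the filter, with 4 to 35 reads a library, and its log2 fold change in Ifnar-/- was -0.54 ± 0.68 (edgeR adjusted p = 0.84; 1.14% of all genes called).

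Across the 4 P14 genotypes, Prg2 was either present or close to 0, and both states occurred in 3 of the 4 groups. Prg2 was above 10 CPM in 4 of 4 Ifnar+/- Flt3 +/+ libraries, 2 of 4 Ifnar-/- Flt3 +/+ libraries, 1 of 4 Ifnar+/- Flt3 ITD/+ libraries and 1 of 5 Ifnar-/- Flt3 ITD/+ libraries. In all other P14 libraries of that series it was at most 1.47 CPM. Epx and Prg3 did not part as clearly. Ifnar+/- Flt3 +/+ library 2, with 32.1 CPM of Prg2, had 0.45 CPM of Epx and 0.585 CPM of Prg3. Ifnar+/- Flt3 ITD/+ library 4, with 0.829 CPM of Prg2, had 0.34 CPM of Epx.

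In Ifnar-/- Flt3 +/+ HPC, Prg2 stood at 1980, 413, 1.47 and 0.613 CPM in libraries 1 to 4, and Epx at 541, 162, 0.0136 and 0.0136 CPM. In Ifnar+/- Flt3 ITD/+ HPC, Prg2 stood at 97.3, 0.302, 0.445 and 0.829 CPM, and Epx at 43.8, 0.0151, 0.274 and 0.34 CPM. In Ifnar-/- Flt3 ITD/+ HPC, Prg2 stood at 0.513, 0.74, 0.518, 0.771 and 182 CPM, and Epx at 0.0293, 0.269, 0, 0 and 10.3 CPM. So 7 of the 9 libraries with the ITD lay below the line of 10 CPM of Prg2. Among the 8 without it, Ifnar-/- Flt3 +/+ libraries 3 and 4 did too. Epx was under 1 CPM in each of these low libraries. The levels with and without the ITD overlapped.

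No member was called in any of the 5 planned comparisons of these groups. For the ITD in Ifnar+/- HPC (4.84% of 17464 genes called), the log2 fold change was -1.0 ± 2.09 for Epx, -2.99 ± 2.24 for Prg2 and -2.97 ± 1.82 for Prg3 (edgeR adjusted p = 0.782, 0.384 and 0.284). For the ITD in Ifnar-/- HPC (0.962% called) it was -6.13 ± 2.35, -3.76 ± 2.12 and -3.68 ± 1.70 (edgeR adjusted p = 0.327, 0.499 and 0.42). Without Ifnar+/- Flt3 +/+ library 2, 5804 genes were called in the first of these and still no member. All 6 values were negative, and none passed the threshold after adjustment over all genes. The members were measured in the same libraries, so these 6 values are not independent. Before adjustment, the edgeR p in Ifnar-/- HPC was 0.0179 for Epx, 0.0927 for Prg2 and 0.0444 for Prg3. Single libraries moved these values. Without Ifnar+/- Flt3 ITD/+ library 1, those in Ifnar+/- HPC were -6.6, -8.43 and -5.9, and without Ifnar+/- Flt3 +/+ library 1 they were -0.01, -1.85 and -1.27 for Epx, Prg2 and Prg3. In Ifnar-/- HPC they were -11.06, -9.68 and -7.4 without Ifnar-/- Flt3 ITD/+ library 5, and -4.58, -1.81 and -1.9 without Ifnar-/- Flt3 +/+ library 1. No member was called in any of these 4 fits.

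For Ifnar loss in Flt3 +/+ HPC (4.39% called), the log2 fold change was 2.81 ± 2.21, 1.42 ± 2.11 and 1.22 ± 1.68 for Epx, Prg2 and Prg3 (edgeR adjusted p = 0.396, 0.678 and 0.649). For Ifnar loss in Flt3 ITD/+ HPC (4.03% called) it was -2.32 ± 2.05, 0.66 ± 2.00 and 0.51 ± 1.68 (edgeR adjusted p = 0.577, 0.897 and 0.905). Without Ifnar-/- Flt3 +/+ library 1, the Flt3 +/+ value turned to -0.53 for Prg2, and without Ifnar-/- Flt3 ITD/+ library 5 the ITD value turned to -5.27. No direction of an Ifnar effect on these genes can be read. The difference between the ITD effects in the 2 Ifnar genotypes was -5.13 ± 3.01, -0.77 ± 2.86 and -0.72 ± 2.35 (edgeR adjusted p = 0.256, 0.882 and 0.865; 0.0115% called).

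The ITD averaged over both Ifnar genotypes was compared after these values had been seen. The log2 fold change was -3.56 ± 1.57 for Epx, -3.37 ± 1.55 for Prg2 and -3.32 ± 1.26 for Prg3, and none was called (edgeR adjusted p = 0.323, 0.356 and 0.215), where 2.98% of genes were called. Library 5 of Ifnar-/- Flt3 ITD/+ decided this: without it Prg2 (-6.34 ± 1.52, edgeR adjusted p = 0.0276) and Prg3 (-5.18 ± 1.27, edgeR adjusted p = 0.032) were called and Epx was not. Of 22 tested eosinophil lineage genes, the shared receptor chains Csf2rb (1.02 ± 0.16) and Csf2rb2 (0.96 ± 0.24) were called higher, and Trib1 (-0.73 ± 0.17) and Ear6 were called lower. Ear6 was at 0 CPM in all 5 Ifnar-/- Flt3 ITD/+ libraries, also in library 5 with its 182 CPM of Prg2. It reached 34.7 CPM in Ifnar-/- Flt3 +/+ library 1.

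Over all 17 genotype libraries with group means taken out, Pearson's r was 0.958 for Epx and Prg2 and 0.939 for Epx and Prg3. It was 0.962 for Prg2 and Prg3. These libraries fell into 8 with Prg2 above 10 CPM and 9 with at most 1.47 CPM, and that split enters these values. The members were therefore also correlated within each set, with group means left in. The split was made on Prg2 itself after the values were seen, so the p-values within it are a description only. In the 8 libraries, log2 CPM of Prg2 and Prg3 followed each other closely, with a Pearson's r of 0.989 (exact permutation p = 2.48e-05, adjusted over 3 pairs 7.44e-05) and a Spearman's rho of 1.0 (exact permutation p = 4.96e-05, adjusted 0.000149). Epx followed Prg2 with an r of 0.873 (exact permutation p = 0.0061, adjusted 0.0061; rho 0.786, p = 0.0279, adjusted 0.0279) and Prg3 with an r of 0.876 (exact permutation p = 0.00546, adjusted 0.0061; rho 0.786, p = 0.0279, adjusted 0.0279). Without the 2 libraries farthest from the median, r stayed at 0.986 for Prg2 and Prg3 (exact permutation p = 0.00139, rho 1.0). It fell to 0.583 for Epx and Prg2 and to 0.56 for Epx and Prg3 (exact permutation p = 0.235 and 0.254), so the relations of Epx rest on those 2 libraries. In the 9 low libraries, r was 0.031, 0.226 and 0.008 for Epx and Prg2, Epx and Prg3, and Prg2 and Prg3 (exact permutation p = 0.936, 0.639 and 0.981).

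Within the libraries that held the genes, the proportions still varied. The per-length level of Prg2 was 7.26 to 233 times that of Epx (median 21.4; 8 libraries with at least 30 reads of each) and 25.5 to 62.2 times that of Prg3 (median 34.45). The extreme was Ifnar+/- Flt3 +/+ library 2, which had 2141 reads of Prg2 against 30 of Epx, a per-length ratio of 233, where the other 7 libraries ran from 7.26 to 62.1.

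**Figure D3:**
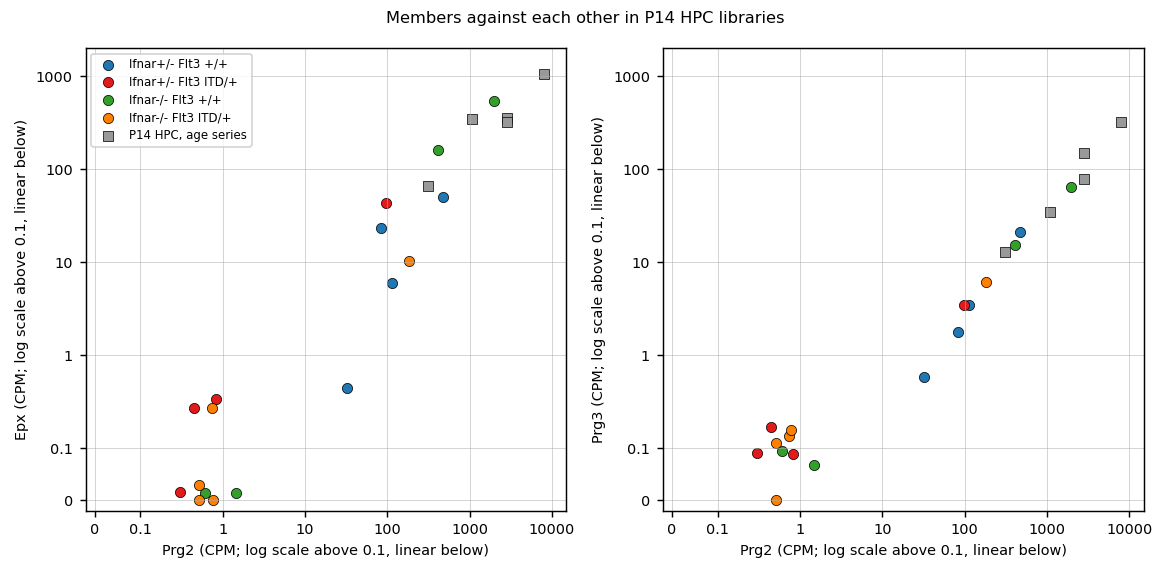
Epx (left) and Prg3 (right) against Prg2 in the 17 P14 HPC libraries of the genotype series (circles, by genotype) and the 5 of the age series (squares), in CPM on axes that are logarithmic above 0.1 and linear below. Libraries above 10 CPM of Prg2 had more of both than the 9 genotype libraries at the low end, which had at most 1.47 CPM of Prg2. Within those 9, Pearson's r with Prg2 was 0.031 for Epx and 0.008 for Prg3.

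The genes whose pattern was most like the members were ranked by Pearson's r with the mean standardised log2 CPM of the 3, as a description. Over the 20 HPC libraries of the age series (12657 genes), the first 3 were Ear6 (0.974), Ear1 (0.954) and Ear2 (0.944). They were followed by Elobl (0.894), Tlcd2 (0.88), Mogat2 (0.865), Rsph9 (0.86), Wls (0.859), Ighm (0.859) and Eif5al3-ps (0.854). These libraries differ in age, and 123 genes reached an r over 0.7.

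Over the 17 P14 genotype libraries (13921 genes), 9 genes exceeded 0.7. They were Ear1 (0.946), the testis-type lactate dehydrogenase Ldhc (0.918), Ear6 (0.883), Ear2 (0.83), the basophil protease Prss34 (0.731), Thra (0.731), Edn1 (0.726), Inppl1 (0.717) and Mogat2 (0.704), and Atxn2 (0.696) came next. The split into high and low libraries enters each of these values. Ear1, Ldhc, Ear6, Edn1, Inppl1 and Mogat2 were also low, with a mean log2 CPM from -3.57 (Edn1) to -2.03 (Inppl1), so their r rests on low counts. The 10 nearest genes of the 2 sets shared Ear1, Ear2, Ear6 and Mogat2. The other age-series neighbours dropped away: Tlcd2 had an r of -0.162, Wls -0.279 and Ighm -0.118 among the P14 genotypes. Ldhc had an r of 0.84 and rank 11 among the ages.

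The neutrophil list differed between the sets in the same way. Its 8 primary granule genes had a median r of 0.653 with the members over HPC ages and of 0.165 over the P14 genotypes, beside medians of -0.015 and -0.03 for all genes. In the genotype libraries, the neutrophil primary granule sum was 11600 CPM in Ifnar+/- Flt3 +/+ library 1, which had 473 CPM of Prg2, but 1510 CPM in Ifnar-/- Flt3 +/+ library 1, which had 1980 CPM of Prg2. It was 5190 CPM in Ifnar+/- Flt3 ITD/+ library 3, which had 0.445 CPM of Prg2. The 23 eosinophil lineage genes as a whole had a median r of 0.144 and 0.152, so the likeness lay in a few of them. Over the P14 genotypes, the highest list median was 0.38, for the mast cell and basophil genes, against -0.368 over HPC ages. The list of later neutrophil granule genes had 0.364 over the P14 genotypes and 0.325 over HPC ages.

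**Figure D4:**
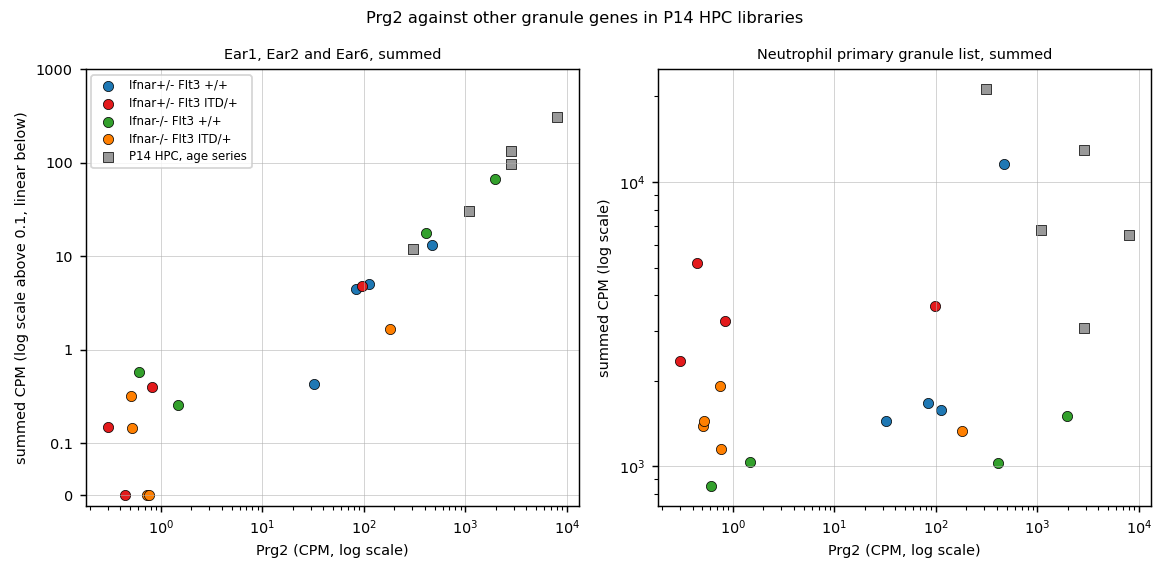
Ear1, Ear2 and Ear6 summed (left) and the 8 neutrophil primary granule genes summed (right) against Prg2 in P14 HPC libraries, in CPM on logarithmic axes (the left vertical axis is linear below 0.1); circles are genotype libraries and squares the age series. The Ear sum tends to climb with Prg2, although Ear6 itself had no read in Ifnar-/- Flt3 ITD/+ library 5, which had 182 CPM of Prg2. The neutrophil sum is as high as 5190 CPM in a library with 0.445 CPM of Prg2 and as low as 1030 CPM in one with 413 CPM.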

How the data were processed

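RNA of 80 HSC and HPC libraries was sequenced after kits that the labels' protocols name as Qiagen RNAeasy micro plus and Clontech SMRTr. The authors used STAR and featureCounts 1.4.5 of Subread, per the submitters' processing notes. Build and annotation: not given in the sources used here. The authors deposited raw read counts per gene, except for HSC of the age series, whose deposited values are RPKM (a unit read from the values). Multiplied by an exon length, these gave whole reads for 25622 of 25622 detected genes (tolerance 1e-05), and these reads summed to 99.9985% or more of the library total. The tests had been planned for this case. The table had 2 rows that are not mouse genes (at most 0.000144% of the counts). It also had 1 column of per-sample values without a matching sample, which was not used. Of the identifiers, 40254 matched a symbol.

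For counts, edgeR 4.0.16 (R 4.3.3; TMM, filterByExpr, quasi-likelihood test) was used and for RPKM, limma 3.58.1 on log2(RPKM + 0.5) after TMM scaling, keeping genes with over 1 RPKM in 3 or more libraries, a scale that understates changes of low genes. Tests were two-sided, adjusted over all genes by Benjamini and Hochberg, and called at an adjusted p under 0.05. Single values used exact permutation. Named genes were the members, up to 4 called genes of smallest adjusted p per list, and the 10 genes most like the members. The members and lists were chosen with earlier results of these data known. Both fits were tested on simulated data. Alternatives were DESeq2 1.42.0, RLE factors, no filter, other pseudocounts, the groups compared alone, a replicate block and leaving out each library. In no comparison did every same-numbered pair correlate above 0.1, so the numbers do not pair the libraries. A list level is the summed CPM of its genes.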

Additional observations from a re-analysis of the deposited data

Results flagged for a closer look

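In 41 sets of values (a gene in a group of 4 or 5 libraries, with at least 10 reads in the highest), 1 library lay far from the rest of its group in 21, always as the highest. Chance gives about 1 in 20 for values that follow a normal curve. CPM values are bounded at 0 and here spread widely within groups, and the 3 genes of 1 library are not independent, so that rate was not tested for them. The 21 fall in 11 groups. In HSC of the age series, these were P0 library 1 (Prg3 0.551 CPM), P7 library 2 (Epx 1.44 CPM), P7 library 4 (Prg2 3.2 CPM), P14 library 4 (Epx 2.19 and Prg2 12.9 CPM) and Adult library 1 (Epx 4.15 and Prg2 50.8 CPM). In HPC of the age series, they were P0 library 1 (Epx 11.0, Prg2 50.2 and Prg3 1.98 CPM) and P14 library 1 (Epx 1050 CPM).

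In P0 HPC of the genotype series, they were wild type library 3 (Prg2 2.8 CPM) and Ifnar-/- library 2 (Prg2 45.5 and Prg3 2.11 CPM). In P14 HPC, they were Ifnar+/- Flt3 +/+ library 1 (Prg3 21.0 CPM), Ifnar+/- Flt3 ITD/+ library 1 (Epx 43.8, Prg2 97.3 and Prg3 3.46 CPM) and Ifnar-/- Flt3 ITD/+ library 5 (Epx 10.3, Prg2 182 and Prg3 6.09 CPM). In 3 of these libraries all 3 genes stood apart together.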

How the results depend on the processing

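From P0 to P14 in the genotype series, each member was called under every alternative that gave it a value, with Prg2 between 6.92 and 9.91 on the log2 scale. At P14, 0 of 3 members were called for Ifnar loss or the interaction under any alternative run. The numbers of replicates do not pair the libraries (r of same-numbered pairs -0.177 to 0.226). With the replicate block, 1 member was called for the ITD in Ifnar+/- HPC (Prg3, -3.51, edgeR adjusted p = 0.0242), 3 for the averaged ITD, and 1 for E16 to P0 in HSC (Prg2, limma adjusted p = 0.0396). Each block fit kept only the groups compared and the library numbers that they share. For the averaged ITD this also left out Ifnar-/- Flt3 ITD/+ library 5, so those 3 calls cannot be credited to the block alone. Leaving out 1 library moved the members called for the averaged ITD from 0 to 2.

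The replicate block reversed the change with Ifnar loss in Flt3 +/+ HPC to -0.93 for Epx, -2.10 for Prg2 and -0.71 for Prg3. In Flt3 ITD/+ HPC the change for Prg2 turned to -1.09, in a block fit that also left out Ifnar-/- Flt3 ITD/+ library 5. Over libraries left out, Ifnar loss in Flt3 +/+ HPC ran from -0.53 to 2.55 for Prg2 and from -0.56 to 2.90 for Prg3. In Flt3 ITD/+ HPC it ran from -7.25 to 3.28 for Epx, -5.27 to 6.09 for Prg2 and -3.21 to 3.44 for Prg3. The interaction ran from -10.07 to 0.46, -6.69 to 4.66 and -4.44 to 2.21. From E16 to P0 in HPC the change ran from -3.14 to 1.46 for Epx, -3.17 to 1.20 for Prg2 and -2.66 to 0.19 for Prg3. In HSC, Prg2 ran from -0.57 to 0.46 (P0 to P7), -0.24 to 1.59 (P7 to P14) and -0.81 to 1.78 (P14 to Adult), Epx from -0.02 to 0.33, -0.26 to 0.34 and -0.34 to 0.50 at the same steps, and Prg3 from -0.42 to 0.03 (E16 to P0) and -0.11 to 0.36 (P14 to Adult). Correlations within the 9 low libraries were 0.031, 0.226 and 0.008, and those of Epx in 6 of the 8 high libraries 0.583 and 0.56. The cause was not tested.

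The count of all genes called, the background of each comparison, depended on the setting. With DESeq2 it was 2656 (ITD in Ifnar+/-), 428 (ITD in Ifnar-/-), 3097 and 1376 (Ifnar loss in Flt3 +/+ and ITD/+), 2408 (interaction), 876 (averaged ITD), 2036 and 336 (Ifnar loss in P0 HPC and HSC), 877 (E16 to P0 in HPC) and 416 (P0 to P7 in HPC). With the replicate block it was 84, 385, 49 (Ifnar loss in Flt3 +/+), 0 (interaction), 345, 667 and 1529 (P0 to P7, P7 to P14 and P14 to Adult in HPC), and 406 and 146 (P0 to P7 and P7 to P14 in HSC). In a fit of the groups compared alone it was 165, 295, 42 and 1368 for the first 4, then 205, 645 and 2665 (E16 to P0, P0 to P7 and P14 to Adult in HPC) and 414 (P0 to P7 in HSC). Without a filter it was 12 (interaction) and 139 (P7 to P14 in HSC).

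Leaving out 1 library gave 264 to 5804 (ITD in Ifnar+/-), 38 to 6223 and 319 to 682 (Ifnar loss in Flt3 +/+ and ITD/+), 0 to 5592 (interaction), 396 to 1364 (averaged ITD), 650 to 2310 (Ifnar loss in P0 HPC), 236 to 545, 114 to 181 and 556 to 1611 (HPC steps from E16 to P14), and 457 to 771 and 119 to 199 (HSC steps from P0 to P14). The 3 highest of these came without Ifnar+/- Flt3 +/+ library 2, and no member was called without it for the P14 genotypes. The lowest and highest for P0 HPC came without wild type libraries 1 and 4, and the lowest for the HPC and HSC age steps without E16 HPC library 1, P7 HPC libraries 2 and 1, and P7 HSC library 1 (both steps). Depth limits the low groups: at P0 in HPC a count of 0 allows up to 0.257 CPM.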
